A study of Homo sapiens with 24 samples.

Results

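The 36 genes described here encode enzymes, sensors and carriers of cholesterol and fatty acid synthesis. They were chosen by gene symbol from a table of 58825 genes. By role, 7 act in the mevalonate steps up to farnesyl diphosphate and 11 in the steps from there through squalene to cholesterol. A further 5 act in sterol sensing, 6 in sterol transport, storage and the arm controlled by liver X receptors, and 7 in fatty acid synthesis.

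Polyadenylated transcripts were sequenced from SK-HEP-1, a widely used human cell line derived from liver cancer and grown in medium with fetal bovine serum. All lines carried the CRISPR interference (CRISPRi) system, in which an inactive Cas9 with a repressor is brought by a guide RNA to the promoter it should silence. The controls carried 1 of 2 non-targeting guides (lines NTC1 and NTC2). The other lines carried 1 of 4 guides against PURPL, a long noncoding RNA induced by p53 (lines sg2, sg4, sg5 and sg6). Each line was given 10 µM Nutlin-3a, which releases p53 from MDM2, or the vehicle DMSO for 6 h. Per line and treatment there were 2 harvests with the numbers 1 and 3, described in the labels as biological replicates, which makes 24 libraries. Whether a line is a clone or a pool is not given in the sources used here. The effect of a guide is therefore known only from 2 control lines and 4 PURPL lines.

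Cells make cholesterol from acetyl-CoA through mevalonate, farnesyl diphosphate and squalene, and fatty acids from acetyl-CoA through malonyl-CoA. When membranes of the endoplasmic reticulum hold little sterol, SCAP carries the SREBP factors to the Golgi, where they are cleaved and then switch on most genes of both pathways. INSIG proteins hold SCAP back when sterol is plentiful. Liver X receptors act on the other side, through genes that limit sterol uptake and promote its export. The p53 protein is known to restrain the mevalonate pathway in liver cells and in tumours.

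Library totals were 66.4 M to 92.1 M counts, median 74.2 M. The unit used below is CPM, counts relative to the library total after TMM scaling. The labels class the cells as endothelial. Of the 10 endothelial markers, 5 passed the filter on low counts. PECAM1 was at most 0.0277 CPM and CDH5 at most 0.0593 CPM in the 23 libraries, and ERG was at 0. The filter also passed 2 of 8 hepatocyte, 4 of 5 epithelial and 5 of 5 fibroblast and mural markers. It passed 2 of 5 leukocyte and 0 of 3 adipocyte markers. VIM, from the fibroblast and mural list, was at 3566 to 4608 CPM. These lists do not settle the cell type. The checks followed the labels. PURPL was at 8.43 ± 1.26 CPM (SD, n = 4) in NTC lines in DMSO and 32.2 ± 3.89 in Nutlin-3a, against 0.558 ± 0.203 (n = 8) and 1.99 ± 0.532 (n = 7) in the PURPL lines. CDKN1A, the classical p53 target, averaged 85.6 CPM in DMSO and 995 CPM in Nutlin-3a in NTC lines.

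Before the members can be compared, 1 library has to be set apart. In the sg2 library of Nutlin-3a harvest 1, levels followed the GC content of the transcripts. Its slope was 1.55 on the log2 scale per 10 points of GC content, against -0.19 to 0.36 in the other 23 libraries. FASN, the fatty acid synthase, has transcripts of 65.8% GC and stood at 1223 CPM in that library, against 28.8 to 93.1 CPM elsewhere. MVD, which decarboxylates mevalonate diphosphate, stood at 13.7 CPM against 0.383 to 1.14. SOAT1, which esterifies cholesterol and has transcripts of 40.2% GC, stood at 92.3 CPM against 212 to 345. Of the 36 members, 16 lay above the highest of the other libraries, 11 below the lowest and 9 within their range. The matching shares over all genes were not counted. The 16 had GC contents of 51.7% to 65.8% and the 11 had 38.1% to 49.99%. This library was left out unless stated, so the sg2 line in Nutlin-3a rests on harvest 3 alone.

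**Figure D1:**
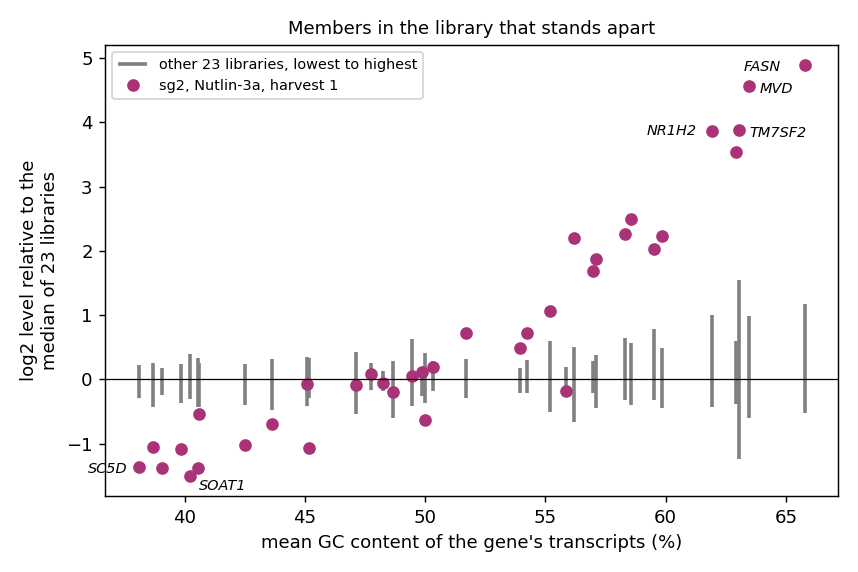
Level of each of the 36 genes in the sg2 Nutlin-3a harvest 1 library (points; log2 of its CPM relative to the median of the other 23 libraries) against the mean GC content of the gene's transcripts in percent; grey bars run from the lowest to the highest of the other 23 libraries. GC-rich genes such as FASN, MVD and NR1H2 lie far above the bars, and GC-poor genes such as SC5D and SOAT1 lie below them.

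Per length, the members spanned a wide range, from a desaturase with very abundant transcripts to a decarboxylase and a sterol reductase with few counts. SCD, the stearoyl-CoA desaturase, had the highest mean level per length over the 23 libraries, 237.5 CPM per kb (lowest 163, highest 320.2). ACLY, which makes cytosolic acetyl-CoA from citrate, had 77.2 CPM per kb. CYP51A1, the lanosterol demethylase, had 62.7, and FDFT1, the squalene synthase, had 55.4. At the other end, MVD had 0.133 CPM per kb and TM7SF2, a sterol reductase, 0.149. The estimated counts behind these levels were 26 to 104 per library for MVD and 13 to 88 for TM7SF2, so counting error is large for both. NR1H2 (the liver X receptor LXR-beta), SREBF1, MVK (mevalonate kinase) and MYLIP had 1.17, 1.41, 1.48 and 2.01 CPM per kb. SREBF2, the SREBP gene mainly tied to cholesterol synthesis, had 6.67, above SREBF1. The ranges of these 2 genes over the 23 libraries did not overlap (5.58 to 7.93 against 1.02 to 2.02). In the library set apart, SREBF1 was at 125 CPM against 8.20 to 16.2 in the others. SREBF2 was at 157 CPM there, against 42.2 to 59.96. MVD, TM7SF2, SREBF1, NR1H2 and MVK have transcripts of 59.85% to 63.45% GC. Ranks between genes of unlike GC content are therefore uncertain.

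**Figure D2:**
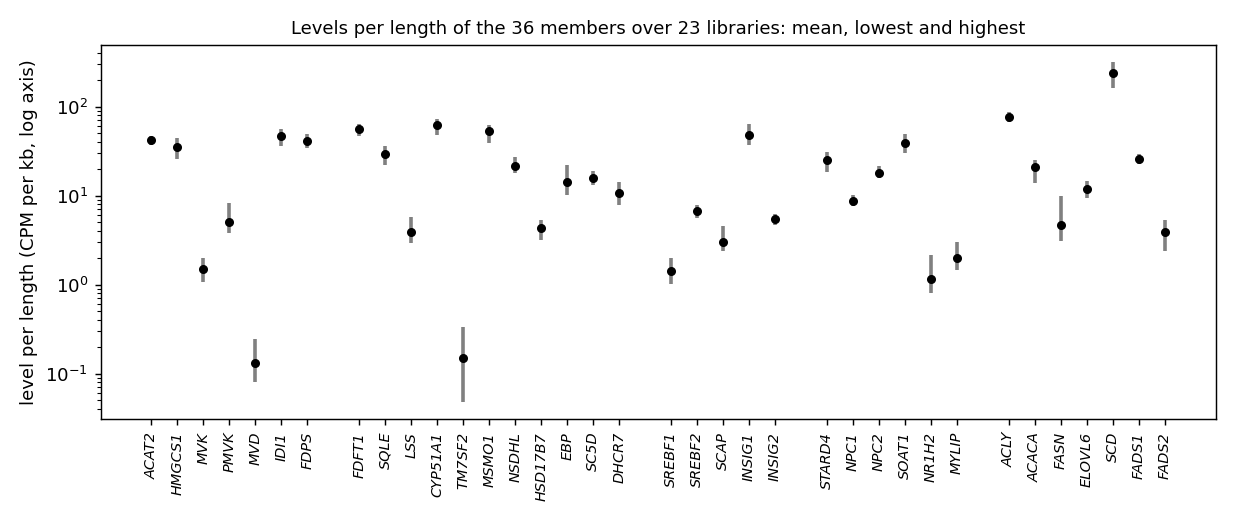
Level per length (CPM per kb of exon, log axis) of the 36 genes, in blocks by role; points are means over 23 libraries and bars run from the lowest to the highest library. SCD lies at the top at 237.5, and MVD and TM7SF2 at the bottom at 0.133 and 0.149.

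Nutlin-3a was first compared with DMSO in the NTC lines to ask how the pathway responds to p53 where no guide targets PURPL. TM7SF2, HSD17B7, INSIG2, STARD4 and MYLIP rose, and EBP, ACLY and ELOVL6 fell. Apart from TM7SF2, which rose 2.20-fold, the shifts were between 0.70-fold and 1.30-fold. These 5 higher and 3 lower calls among 36 members compare with 8.88% of the 16697 genes tested called higher and 15.9% called lower (edgeR quasi-likelihood test, adjusted p under 0.05). As shares of the members these are 13.9% and 8.33%. The median log2 fold change was -0.12 over the members and -0.06 over all genes. Negative values were found for 26 of 36 members and for 58.5% of all genes. Scaling mattered for the balance: over all genes 35.8% of the calls were higher with TMM and 49.4% with RLE size factors. With RLE size factors, 5 members were called higher and 2 lower, ELOVL6 no longer among them, and 21 of 36 members were negative.

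Across the 4 PURPL lines, the same comparison called 5 members higher (TM7SF2, HSD17B7, STARD4, NPC2 and MYLIP) and 7 lower (IDI1, SQLE, CYP51A1, SC5D, SOAT1, ACLY and ELOVL6). These are 13.9% and 19.4% of the members, and over all genes 15.9% were called higher and 22.7% lower, so neither share stood above the background. The median log2 fold change was 0.02 over the members and 0.00 over all genes, and 16 of 36 were negative, against 50.2% of all genes. Both sets of lines called TM7SF2, HSD17B7, STARD4 and MYLIP higher and ACLY and ELOVL6 lower, no member was called in opposite directions, and 22 members were called in neither. The 2 comparisons share no library, though they share 1 estimate of the spread. In bulk RNA, fewer cells of a kind and less RNA per cell cannot be told apart.

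**Figure D3:**
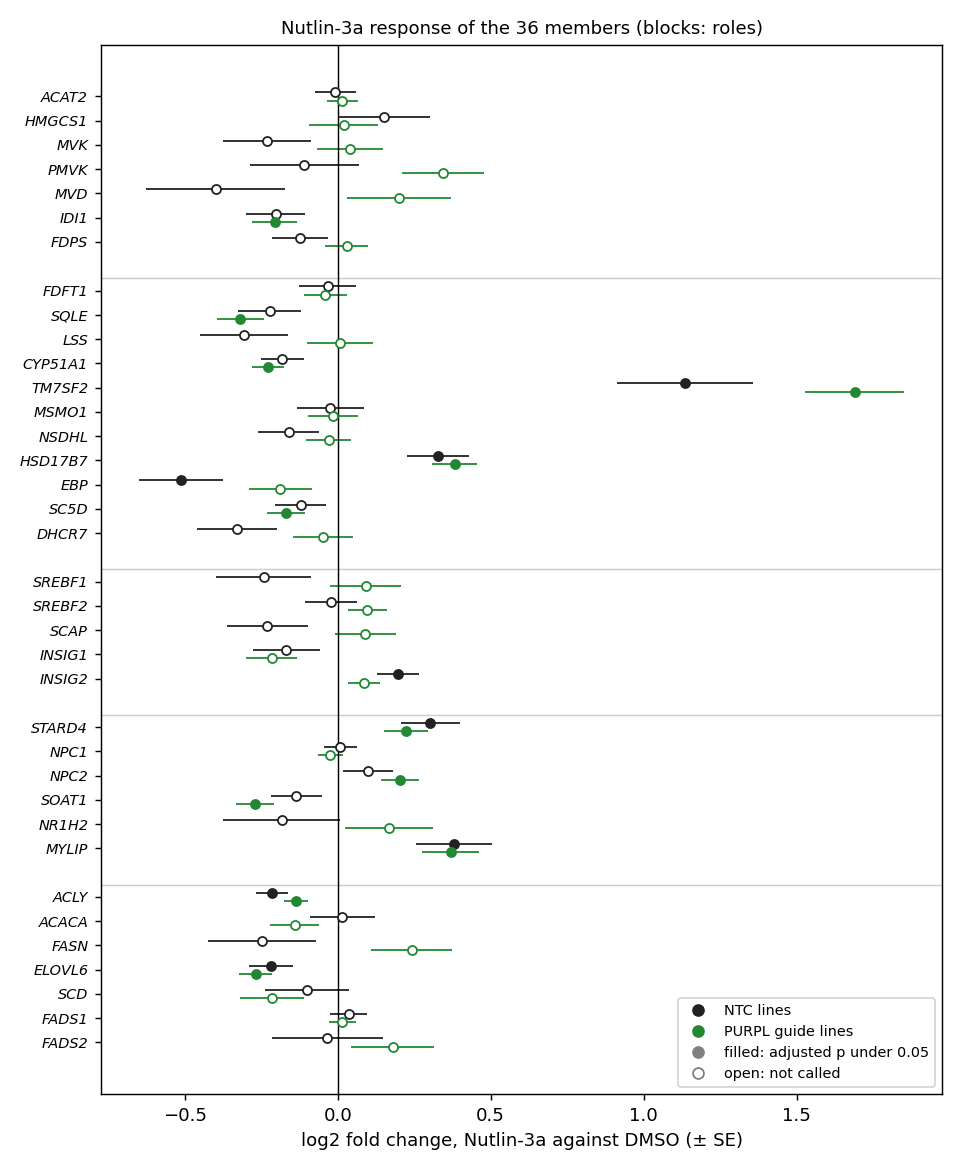
Log2 fold change of Nutlin-3a against DMSO for each of the 36 genes, in the NTC lines (black) and the PURPL lines (green), with the standard error; filled points passed an adjusted p of 0.05. TM7SF2 lies far to the right in both sets at 1.14 and 1.69, and most other members lie within 0.5 of zero.

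Of the 7 mevalonate enzymes, none was called in the NTC lines and 1 fell in the PURPL lines. IDI1, which interconverts the isoprenoid units isopentenyl and dimethylallyl diphosphate, was at 206 to 242 CPM (median 222) in PURPL lines in DMSO and at 164 to 211 (median 195) in Nutlin-3a. The ranges overlapped, and IDI1 fell by 0.21 on the log2 scale (SE 0.07, edgeR adjusted p = 0.035). That call is fragile: it was lost in 8 of the 15 fits that left out 1 library, with adjusted p up to 0.158 without sg5 Nutlin-3a harvest 3, and with the GC trend removed (log2 -0.13, adjusted p = 0.15). IDI1 lost its call in 12 of 24 alternatives in all, among them RLE size factors, DESeq2 and all 24 libraries. Its log2 change in the NTC lines was -0.20 (SE 0.10, edgeR adjusted p = 0.15). PMVK, the phosphomevalonate kinase, had log2 0.35 (SE 0.13) in the PURPL lines with an adjusted p = 0.052 in edgeR, just outside the threshold, and -0.11 (SE 0.18) in the NTC lines. It was called higher in the PURPL lines by DESeq2 (0.38, adjusted p = 0.014) and by edgeR with the GC trend removed (0.23, adjusted p = 0.024), with RLE size factors, without the filter and with sums per line. HMGCS1, which makes HMG-CoA, had 0.15 and 0.02 in NTC and PURPL lines. ACAT2, which makes acetoacetyl-CoA, had -0.01 and 0.01, with SE of 0.07 and 0.05. Its exons (4299 bases) overlap those of SOD2, SOD2-OT1 and TCP1 on the opposite strand, by 2996 bases added up over these genes. Whether strand entered the counting is not known, so the counts of ACAT2 are uncertain. MVK, MVD and FDPS, the farnesyl diphosphate synthase, had -0.23, -0.40 and -0.12 in the NTC lines and 0.04, 0.20 and 0.03 in the PURPL lines.

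Of the 11 enzymes from farnesyl diphosphate to cholesterol, 2 rose in both sets of lines, 1 fell in the NTC lines and 3 fell in the PURPL lines. TM7SF2 encodes a sterol C14-reductase, which acts after the lanosterol demethylase CYP51A1. It lies at chr11:65111845-65116384 (hg38, plus strand). Its level in NTC1 was 0.387 and 0.385 CPM in DMSO and 0.608 and 0.668 in Nutlin-3a. In NTC2 it was 0.201 and 0.163 CPM in DMSO and 0.516 and 0.555 in Nutlin-3a. Over the PURPL lines it was 0.173 to 0.359 CPM (median 0.268) in DMSO and 0.669 to 1.13 (median 0.817) in Nutlin-3a. Every Nutlin-3a library lay above every DMSO library, over all 6 lines. TM7SF2 was the only member with no overlap over all lines. By this rule 4.17% of all genes tested were higher and 7.82% lower.

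The log2 fold change of TM7SF2 was 1.14 in the NTC lines (SE 0.22, edgeR adjusted p = 0.0011) and 1.69 in the PURPL lines (SE 0.16, adjusted p = 3.2e-07). The single lines were at 0.73 (NTC1), 1.56 (NTC2), 1.53 (sg2), 1.76 (sg4), 1.68 (sg5) and 1.83 (sg6). NTC1 thus had the smallest response, and its DMSO level was the highest of the 6 lines. TM7SF2 kept its call in all 8 NTC fits and all 15 PURPL fits that left out 1 library. With the GC trend removed it was 1.28 and 1.55. With the library set apart put back, it was 2.20 in the PURPL lines and lost its call in the NTC lines (log2 1.17, SE 0.44, edgeR adjusted p = 0.13).

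LBR, the lamin B receptor, is the other human gene for a sterol C14-reductase and is no member of the 36. Its level in the NTC1 libraries was 392 and 365 CPM in DMSO and 281 and 292 in Nutlin-3a. In NTC2 it was 468 and 531 CPM in DMSO and 309 and 298 in Nutlin-3a. LBR fell by 0.56 on the log2 scale in the NTC lines (SE 0.06, edgeR adjusted p = 5.8e-06) and by 0.69 in the PURPL lines (SE 0.05, adjusted p = 7.6e-09). Per length, LBR averaged 69.3 CPM per kb over the 23 libraries against 0.149 for TM7SF2. The transcripts of the 2 genes for this step thus moved in opposite directions, at levels far apart. In the library set apart, TM7SF2 stood at 5.70 CPM and LBR at 96.4 CPM, so the size of the gap depends on the library. LBR was picked out for this comparison after its values were seen.

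HSD17B7, the sterol 3-ketoreductase, also rose in both sets. It was at 15.2, 20.2, 16.4 and 17.9 CPM in NTC lines in DMSO and at 20.2, 23.5, 20.2 and 23.6 CPM in Nutlin-3a. Over the PURPL lines it was at 16.6 to 20.8 CPM (median 18.5) in DMSO and 21.6 to 25.6 (median 24.3) in Nutlin-3a. The treatments did not overlap within either set, although the highest DMSO and the lowest Nutlin-3a library of the NTC lines were both at 20.2 CPM. Its log2 fold change was 0.33 in the NTC lines (SE 0.10, edgeR adjusted p = 0.024) and 0.38 in the PURPL lines (SE 0.07, adjusted p = 6.3e-04). All 6 lines lay between 0.31 and 0.40. The NTC call was lost in 4 of 8 fits without 1 library (adjusted p up to 0.111, without NTC1 Nutlin-3a harvest 3) and with the GC trend removed (log2 0.27, adjusted p = 0.064). The counts are estimates that share out reads fitting several genes, so reads of HSD17B7 shared with near-identical copies may be split.

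EBP, the sterol isomerase also known as emopamil binding protein, fell in the NTC lines. It was at 39.3, 53.6, 35.3 and 33.7 CPM in DMSO and at 28.0, 29.1, 24.7 and 30.4 CPM in Nutlin-3a, with no overlap. The log2 fold change was -0.51 (SE 0.14, edgeR adjusted p = 0.011). The highest value belongs to NTC1 DMSO harvest 3, and without that library the change was -0.39 (adjusted p = 0.066). Without NTC2 Nutlin-3a harvest 1 it was -0.44 (adjusted p = 0.061). EBP in the PURPL lines was at -0.19 (SE 0.10, edgeR adjusted p = 0.17), and with the GC trend removed it was called there too, at -0.23 (adjusted p = 0.024).

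SQLE, the squalene epoxidase, a rate-limiting step, was at 133 to 155 CPM (median 142) in PURPL lines in DMSO and at 98.7 to 134 (median 102) in Nutlin-3a. Of its 7 Nutlin-3a libraries, only that of sg2 harvest 3 (134.1 CPM) lay above the lowest DMSO library (132.7 CPM). SQLE fell by 0.32 on the log2 scale (SE 0.08, edgeR adjusted p = 0.0039). CYP51A1 was at 231 to 259 CPM (median 247) in DMSO and at 172 to 234 (median 214) in Nutlin-3a, and fell by 0.23 (SE 0.05, adjusted p = 0.0027). Both kept their calls in all 15 fits without 1 library. Their NTC values were -0.22 (SE 0.10) and -0.18 (SE 0.07), with edgeR adjusted p = 0.14 and 0.075. With the GC trend removed, CYP51A1 was called lower in the NTC lines as well (log2 -0.23, edgeR adjusted p = 0.012). CYP51A1 shares 2943 bases of exon with annotated transcripts on its own strand, so its counts are uncertain.

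SC5D, the lathosterol oxidase, was at 88.1 to 103 CPM (median 92.9) in PURPL lines in DMSO and 73.4 to 94.2 (median 82.0) in Nutlin-3a. It fell by 0.17 (SE 0.06, edgeR adjusted p = 0.039). The call was lost in 9 of 15 fits without 1 library, with adjusted p up to 0.153 without sg5 Nutlin-3a harvest 3, and with the GC trend removed. It was also lost with all 24 libraries, RLE size factors, no filter, DESeq2 and sums per line, in all in 15 of 24 alternatives. The remaining sterol enzymes were not called. FDFT1 had log2 -0.03 and -0.04 in NTC and PURPL lines, MSMO1 (the methylsterol monooxygenase) -0.02 and -0.02, and NSDHL (which removes the methyl groups at carbon 4 together with MSMO1 and HSD17B7) -0.16 and -0.03. LSS, the lanosterol synthase, had -0.31 and 0.01, and DHCR7, the final reductase of the Kandutsch-Russell branch, -0.33 and -0.05. LSS and DHCR7 were called lower in the NTC lines once the GC trend was removed, at -0.23 and -0.27 (edgeR adjusted p = 0.035 and 0.017).

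Among the 5 sterol sensing genes, INSIG2 rose in the NTC lines and no other call was made. INSIG2, which retains SCAP in the endoplasmic reticulum, was at 19.9, 18.4, 22.2 and 22.3 CPM in DMSO and at 22.2, 24.7, 24.8 and 23.0 CPM in Nutlin-3a. The lowest Nutlin-3a library overlapped the NTC2 DMSO libraries. Its log2 fold change was 0.20 (SE 0.07, edgeR adjusted p = 0.046) in the NTC lines and 0.09 (adjusted p = 0.21) in the PURPL lines. The NTC call was lost in 6 of 8 fits without 1 library (adjusted p up to 0.181, without NTC1 Nutlin-3a harvest 3) and in 11 of 17 alternatives in all. INSIG1, the SREBP target among the INSIG genes, was at -0.17 (SE 0.11) in the NTC lines and -0.22 (SE 0.08) in the PURPL lines, with edgeR adjusted p = 0.31 and 0.051, and the means of all 6 lines were below zero. SREBF1 was at -0.24 (SE 0.15) and 0.09 (SE 0.12), SREBF2 at -0.02 and 0.10, and SCAP at -0.23 and 0.09, none of them called. With the GC trend removed, INSIG2 was no longer called in the NTC lines (log2 0.15, edgeR adjusted p = 0.064) and was called higher in the PURPL lines (0.17, adjusted p = 0.0049), where INSIG1 was called lower (-0.21, adjusted p = 0.042).

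Of the 6 genes of transport, storage and the liver X receptor arm, STARD4 and MYLIP rose in both sets of lines, and NPC2 rose and SOAT1 fell in the PURPL lines. STARD4, a cytosolic sterol carrier and SREBP target, was at 116, 104, 129 and 149 CPM in NTC lines in DMSO and at 141, 172, 154 and 143 CPM in Nutlin-3a. Over the PURPL lines it was at 126 to 151 CPM (median 133) in DMSO and 125 to 178 (median 163) in Nutlin-3a. The treatments overlapped in both sets. Its log2 fold change was 0.30 in the NTC lines (SE 0.10, edgeR adjusted p = 0.028) and 0.22 in the PURPL lines (SE 0.07, adjusted p = 0.021). Without 1 library the call was lost in 4 of 8 NTC fits (adjusted p up to 0.146, without NTC1 Nutlin-3a harvest 3) and, without sg2 Nutlin-3a harvest 3 or sg6 Nutlin-3a harvest 3, in the PURPL lines (adjusted p = 0.057 and 0.055).

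MYLIP encodes the ubiquitin ligase IDOL, a liver X receptor target that sends lipoprotein receptors to degradation. It was at 4.65, 4.43, 5.58 and 5.13 CPM in NTC lines in DMSO and at 6.21, 5.98, 6.91 and 6.61 CPM in Nutlin-3a, with no overlap. Over the PURPL lines it was at 4.86 to 7.05 CPM (median 5.16) in DMSO and 5.81 to 9.10 (median 7.23) in Nutlin-3a, with overlap because harvest 1 of sg5 and of sg6 in DMSO lay above the lowest Nutlin-3a library. The log2 fold change was 0.38 in the NTC lines (SE 0.13, edgeR adjusted p = 0.035) and 0.37 in the PURPL lines (SE 0.09, adjusted p = 0.0047). The NTC call was lost in 7 of 8 fits without 1 library (adjusted p up to 0.112, without NTC2 DMSO harvest 3), at log2 values of 0.35 to 0.41, and the PURPL call in none of 15.

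NPC2, which hands cholesterol to NPC1 in lysosomes, was at 43.4 to 48.8 CPM (median 45.5) in PURPL lines in DMSO and 48.6 to 58.1 (median 52.4) in Nutlin-3a, where only sg5 DMSO harvest 3 lay above the lowest Nutlin-3a library. It rose by 0.20 (SE 0.06, edgeR adjusted p = 0.015). SOAT1 was at 249 to 325 CPM (median 299.9) in DMSO and 212 to 261 (median 242) in Nutlin-3a. It fell by 0.27 (SE 0.06, edgeR adjusted p = 0.0024). Both kept their calls without any 1 library. NPC2 in the NTC lines was at 0.10 (SE 0.08) and SOAT1 at -0.13 (SE 0.08), not called. NPC1 had 0.01 and -0.02 in NTC and PURPL lines, with SE of 0.05 and 0.04, and NR1H2 had -0.18 (SE 0.19) and 0.17 (SE 0.14).

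Of the 7 fatty acid genes, ACLY and ELOVL6 fell in both sets of lines. ACLY was at 399, 457, 402 and 413 CPM in NTC lines in DMSO and at 352, 363, 353 and 372 CPM in Nutlin-3a, with no overlap. PURPL lines had it at 407 to 449.6 CPM (median 426) in DMSO and 359.9 to 409.6 (median 398) in Nutlin-3a. It fell by 0.21 in the NTC lines (SE 0.05, edgeR adjusted p = 0.0071) and by 0.14 in the PURPL lines (SE 0.04, adjusted p = 0.013). The NTC call held in all 8 fits without 1 library but was lost in 4 of 17 alternatives: with all 24 libraries (edgeR adjusted p = 0.357), without the filter, with only the NTC lines in the fit and with sums per line. The PURPL call was lost without sg5 Nutlin-3a harvest 3 (log2 -0.09, adjusted p = 0.088), with all 24 libraries and without the filter.

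ELOVL6, which elongates palmitate to stearate, was at 81.1, 81.8, 93.2 and 106 CPM in NTC lines in DMSO and at 69.3, 79.7, 76.7 and 84.5 CPM in Nutlin-3a, with overlap between the lines. In the PURPL lines every DMSO library (85.9 to 100.3 CPM, median 94.6) lay above every Nutlin-3a library (70.3 to 85.2 CPM, median 77.3). The log2 fold change was -0.22 in the NTC lines (SE 0.07, edgeR adjusted p = 0.035) and -0.27 in the PURPL lines (SE 0.05, adjusted p = 8.0e-04). The NTC call was lost with RLE size factors, with DESeq2 (log2 -0.16, adjusted p = 0.15) and in 5 of 8 fits without 1 library (adjusted p up to 0.157, without NTC2 DMSO harvest 3). In all it was lost in 11 of 17 alternatives. The PURPL call held in all 15.

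SCD was at -0.10 (SE 0.14) in the NTC lines and -0.21 (SE 0.10) in the PURPL lines, below zero in all 6 lines but not called. ACACA, the acetyl-CoA carboxylase that commits carbon to fatty acids, was at 0.02 and -0.14. FADS1 and FADS2, the desaturases of polyunsaturated fatty acids, were at 0.04 and -0.03 in the NTC lines and 0.02 and 0.18 in the PURPL lines. These 2 genes share 490 bases of exon on opposite strands, and the sources used here do not say whether strand entered the counting. FASN was at -0.25 (SE 0.18) in the NTC lines and 0.24 (SE 0.13) in the PURPL lines. Its single lines ran from -0.50 (NTC1) to 0.69 (sg5), the widest spread among the fatty acid genes, and libraries with positive GC slopes (NTC1 DMSO harvest 3 at 0.33 and sg5 Nutlin-3a harvest 3 at 0.36) belong to these lines. With the GC trend removed, FASN was at -0.07 in the NTC lines and 0.07 in the PURPL lines.

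**Figure D4:**
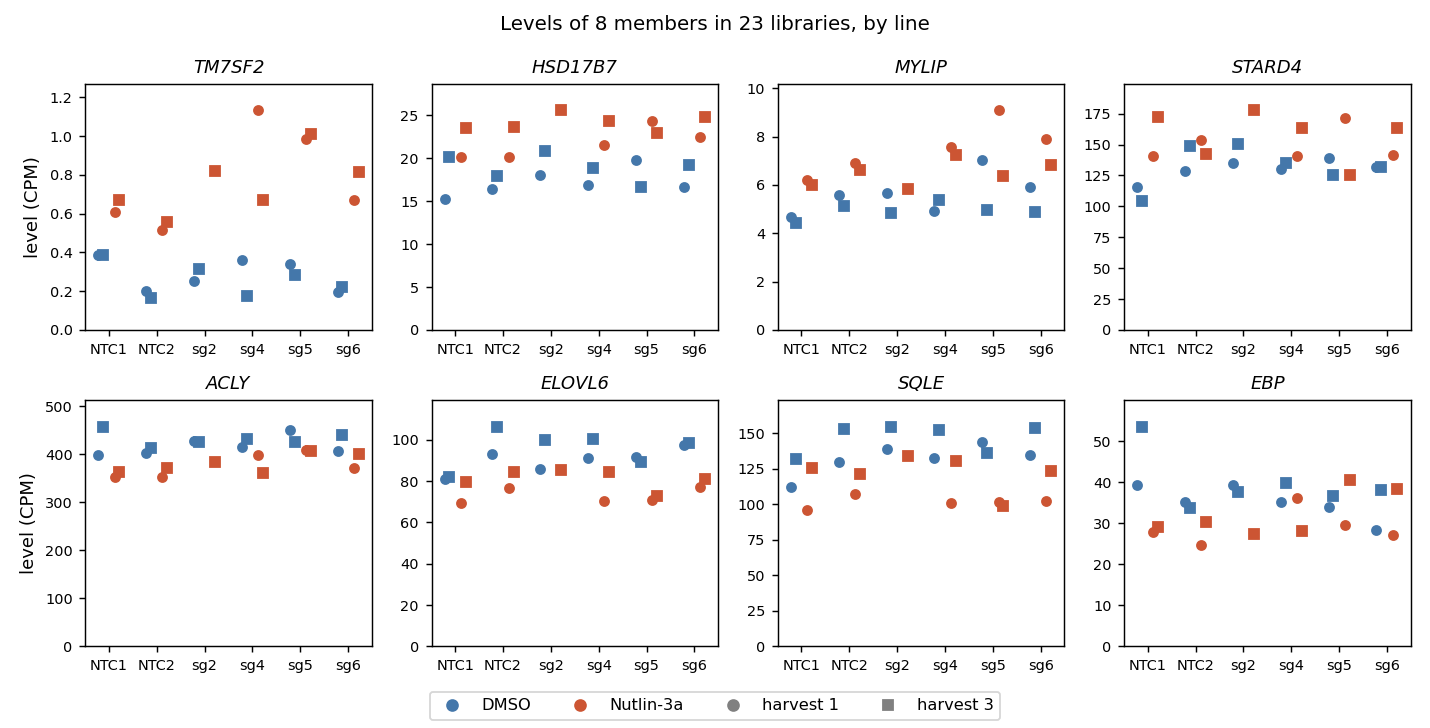
Level (CPM, axis from 0) of 8 genes in each of 23 libraries, by line on the horizontal axis; blue is DMSO, red is Nutlin-3a, circles are harvest 1 and squares harvest 3. TM7SF2 shows a gap between the treatments in all lines (0.163 to 0.387 against 0.516 to 1.13 CPM), while for each of the other 7 genes the DMSO and Nutlin-3a libraries overlap across the 6 lines.

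Counted by line, 6 members had a higher mean in Nutlin-3a in all 6 lines (TM7SF2, HSD17B7, INSIG2, STARD4, NPC2 and MYLIP), as 16.6% of all genes tested did. A lower mean in all 6 lines was found for 8 members (IDI1, SQLE, CYP51A1, EBP, INSIG1, ACLY, ELOVL6 and SCD), as for 23% of all genes. Counted by library, 3 members lay wholly above DMSO in the NTC lines (TM7SF2, HSD17B7 and MYLIP) and 2 wholly below (EBP and ACLY), where 9.53% and 14.9% of all genes did. In the PURPL lines TM7SF2 and HSD17B7 lay wholly above and ELOVL6 wholly below, where 6.17% and 13.5% of all genes did. These shares of members, 8.33% and 5.56% in the NTC lines and 5.56% and 2.78% in the PURPL lines, were near or under the background.

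Putting the library set apart back into the fit changed the calls. In the NTC lines no member was then called, with 3 at an unadjusted p under 0.05, where 4.18% of all genes were called higher and 4.03% lower. Among members, the PURPL lines then gave 7 higher, with MVD (log2 1.13), FASN (1.29) and PMVK (0.70) among them, and 3 lower (SQLE, CYP51A1 and ELOVL6), where 17.7% and 16.5% of all genes were called. MVD, FASN and PMVK were not called in the fit without that library. Most transcripts listed as signs of RNA handling or of the nucleus moved with the treatment as well. Of 5 such genes, MT-CO1, MT-CO2, MT-ND4 and NEAT1 rose in both sets of lines and MALAT1 was not called. Mitochondrial transcripts took 0.81% to 1.08% of counts in DMSO libraries and 1.10% to 1.47% in Nutlin-3a libraries. Whether these rises come from RNA handling or from the treatment itself was not tested. The part of these transcripts in the shifts of the members was not tested either.

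The 6 genes called in the same direction in both sets of lines have RefSeq promoter windows (GRCh38.p14), which reach from 250 bases before to 50 after the start. They are shown because these genes moved together with the treatment in both sets. TM7SF2, HSD17B7, STARD4 and MYLIP rose, and ACLY and ELOVL6 fell. Capitals mark matches to CCAAT on either strand, the site of NF-Y, a factor known to act beside SREBP.
TM7SF2, chr11:65111622-65111921, plus strand: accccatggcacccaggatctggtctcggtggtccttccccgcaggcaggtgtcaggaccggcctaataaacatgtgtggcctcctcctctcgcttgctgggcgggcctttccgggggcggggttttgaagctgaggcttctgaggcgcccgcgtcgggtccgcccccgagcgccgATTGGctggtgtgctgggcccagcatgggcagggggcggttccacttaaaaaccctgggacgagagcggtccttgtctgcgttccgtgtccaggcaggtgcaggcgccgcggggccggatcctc
HSD17B7, chr1:162790452-162790751, plus strand: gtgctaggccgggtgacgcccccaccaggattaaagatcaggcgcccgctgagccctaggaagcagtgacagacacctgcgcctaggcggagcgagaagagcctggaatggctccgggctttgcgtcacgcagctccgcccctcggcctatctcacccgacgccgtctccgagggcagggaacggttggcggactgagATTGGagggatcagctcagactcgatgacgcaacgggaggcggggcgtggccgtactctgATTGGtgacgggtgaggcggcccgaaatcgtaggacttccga
STARD4, chr5:111512486-111512785, minus strand: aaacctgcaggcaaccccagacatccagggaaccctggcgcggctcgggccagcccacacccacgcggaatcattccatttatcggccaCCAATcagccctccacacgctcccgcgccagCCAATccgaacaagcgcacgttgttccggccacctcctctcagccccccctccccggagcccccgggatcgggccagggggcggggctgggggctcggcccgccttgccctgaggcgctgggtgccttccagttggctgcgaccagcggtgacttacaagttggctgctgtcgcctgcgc
MYLIP, chr6:16128836-16129135, plus strand: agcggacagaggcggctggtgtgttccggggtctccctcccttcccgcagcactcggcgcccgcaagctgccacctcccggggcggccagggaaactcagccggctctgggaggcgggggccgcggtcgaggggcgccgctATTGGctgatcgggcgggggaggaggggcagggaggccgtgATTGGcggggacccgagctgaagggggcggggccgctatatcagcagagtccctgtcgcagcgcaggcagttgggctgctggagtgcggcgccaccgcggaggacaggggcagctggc
ACLY, chr17:41918973-41919272, minus strand: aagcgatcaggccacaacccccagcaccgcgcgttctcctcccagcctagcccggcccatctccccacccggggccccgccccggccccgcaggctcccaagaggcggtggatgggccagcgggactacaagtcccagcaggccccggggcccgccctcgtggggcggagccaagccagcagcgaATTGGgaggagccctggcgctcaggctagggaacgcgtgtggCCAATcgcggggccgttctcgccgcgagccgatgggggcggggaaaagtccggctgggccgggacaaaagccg
ELOVL6, chr4:110198566-110198865, minus strand: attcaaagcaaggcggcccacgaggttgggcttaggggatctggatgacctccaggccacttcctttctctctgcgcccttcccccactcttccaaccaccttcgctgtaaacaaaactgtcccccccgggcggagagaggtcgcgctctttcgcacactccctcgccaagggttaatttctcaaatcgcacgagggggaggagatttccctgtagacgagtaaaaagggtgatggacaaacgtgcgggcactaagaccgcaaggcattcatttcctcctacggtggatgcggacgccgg

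Windows were found for 32 of the 36 genes, 43 windows in all. CCAAT on either strand was in 27 of 43 windows (62.8%), those of 23 genes, against 34.6% of the 35116 windows of this length in the table. Of the 6 genes shown, only ELOVL6 had no match. The GC box GGGCGG on either strand was in 39 of 43 windows (90.7%) against 45% of all. The sterol regulatory element was searched as TCACNCCAC on either strand and was found in 1 window, 133 bases before the start of SREBF2 (2.33% of windows against 1.13% of all). The matches to the 3 motifs did not overlap one another in any of these windows. The background was not matched for GC content, and a gene with several windows, some of them overlapping, counted more than once. A match describes the letters and is neither a site in use nor a cause.

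Guides against PURPL were compared with non-targeting guides over lines, 4 against 2, to ask whether lowering PURPL changes these genes. In DMSO no member was called. The only call among 16648 genes was PURPL itself (0.00601% of genes, edgeR adjusted p under 0.05), while 528 genes, 4 of them members, had an unadjusted p under 0.05. Those 4 were ACACA, FDFT1, HMGCS1 and SCD, all higher in the PURPL lines. Their log2 differences were 0.26 (SE 0.09), 0.17 (SE 0.06), 0.24 (SE 0.09) and 0.22 (SE 0.09), each with an edgeR adjusted p = 0.83. For ACACA, NTC1 DMSO harvest 3 was at 179 CPM. The other NTC libraries in DMSO (264 to 281 CPM) lay within the range of the PURPL lines (264 to 331 CPM). The median over the members was 0.05, against -0.01 over all genes.

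In Nutlin-3a no member was called either, and PURPL was again the only call (0.00596% of 16768 genes), with 799 genes at an unadjusted p under 0.05. Of the members, 32 of 36 were higher in the PURPL lines, against 50.5% of all genes tested. The median log2 difference was 0.12 over the members and 0.00 over all genes. Members at an unadjusted p under 0.05 numbered 9. FADS2 (log2 0.32, SE 0.05), FDFT1, TM7SF2 (0.55, SE 0.17), FDPS, MVK, DHCR7, NSDHL and INSIG1 were higher, and SOAT1 (-0.15, SE 0.06) was lower. The smallest edgeR adjusted p was that of FADS2, 0.35. DESeq2 called FADS2 higher at the same size (log2 0.32, adjusted p = 6.4e-05), as did edgeR without the filter on low counts. FADS2 averaged 38.3 and 37.2 CPM in NTC1 and NTC2 in Nutlin-3a, and 48.6, 49.0, 49.2 and 45.3 CPM in sg2, sg4, sg5 and sg6. Its single libraries overlapped, at 32.4 to 42.0 CPM in the NTC lines and 33.9 to 56.8 CPM in the PURPL lines. The 2 harvests of sg6 were at 33.9 and 56.8 CPM, and sg2 had 1 library. These fits used sums per line, which hide the spread between harvests.

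In line means, all 4 PURPL lines lay above both NTC lines in Nutlin-3a for 16 members, and below both for INSIG2 and SOAT1. Of all genes tested, 8.21% lay above and 8% below. In DMSO 8 members lay above and none below, against 4.85% and 5.12% of all genes. The members in both lists of higher genes were ACAT2, IDI1, FDFT1, HSD17B7, ACACA and FADS1. With any 1 line left out, the members higher in Nutlin-3a numbered 29 to 34, and with all 24 libraries 27. The 6 lines are few, and with 2 control lines a trait of either control line cannot be told apart from an effect of the guides.

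**Figure D5:**
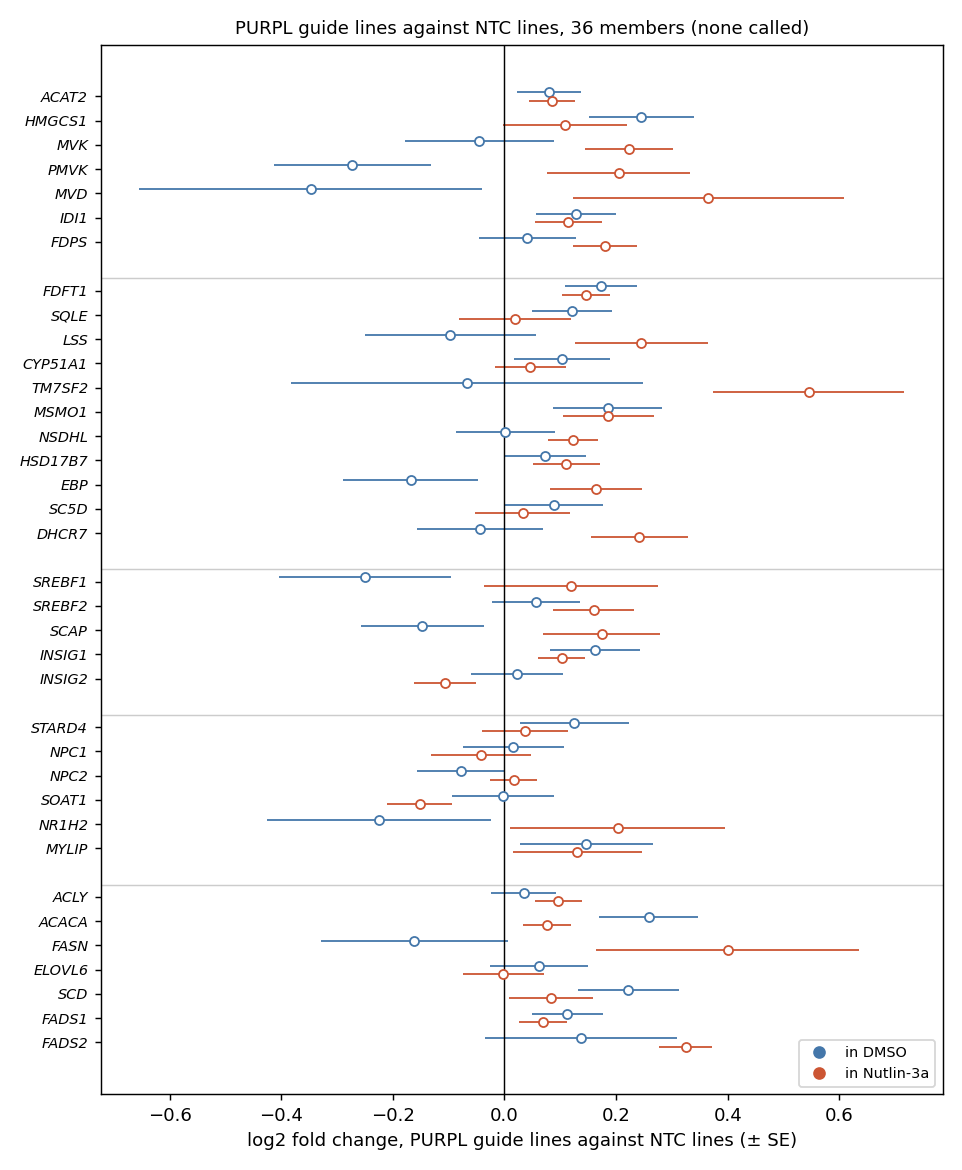
Log2 fold change of the 4 PURPL lines against the 2 NTC lines for each of the 36 genes, in DMSO (blue) and in Nutlin-3a (red), with the standard error; no point passed an adjusted p of 0.05. In Nutlin-3a 32 of the 36 points lie to the right of zero, most within 0.4 of it.

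How much the guide comparison rests on the controls showed when NTC2 was left out. With NTC1 as the only control line in DMSO, 3075 genes were called higher and 3249 lower, among them 13 members higher and 12 lower. The lone line was then assumed to vary like the PURPL lines. The 13 higher members had transcripts of 38.1% to 55.9% GC (median 43.6%) and the 12 lower ones 50.3% to 65.8% (median 59.1%). The GC slopes of the NTC1 DMSO libraries were 0.13 and 0.33, above those of the other 10 DMSO libraries (-0.19 to 0.03). Without NTC1, 6 genes were called higher and 2 lower, and no member.

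The response to Nutlin-3a itself was compared between the PURPL lines and the NTC lines. No gene of 17106 was called (0%), with 994 at an unadjusted p under 0.05. DESeq2 called 4 higher and 1 lower, none a member. The members at an unadjusted p under 0.05 were PMVK (difference of log2 responses 0.45, SE 0.15), FASN (0.47, SE 0.20) and MVD (0.63, SE 0.28), each with an edgeR adjusted p = 0.61. TM7SF2 differed by 0.57 (SE 0.28, adjusted p = 0.61), so its larger response in the PURPL lines was not past the threshold. With the GC trend removed, these differences were smaller, at 0.25 for PMVK, 0.10 for FASN, 0.29 for MVD and 0.24 for TM7SF2, and none was called. Without NTC2, 7 members were called with a higher response and 2 with a lower one, out of 1488 and 1449 genes.

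The pathway was followed further in 40 related genes, of which 39 could be tested. In the NTC lines 3 rose and 11 fell, where 8.88% and 15.9% of all genes did, and in the PURPL lines 6 rose and 13 fell, where 15.9% and 22.7% did, with none called in the guide comparisons or in the difference of responses. LBR is described above. LPCAT3, a phospholipid acyltransferase and liver X receptor target, rose by 0.50 in the NTC lines (SE 0.08) and 0.51 in the PURPL lines (SE 0.06), with edgeR adjusted p = 1.8e-04 and 3.3e-06. TMEM97, which binds NPC1, fell by 0.38 and 0.44 (SE 0.07 and 0.06). ACSL1, which activates fatty acids, fell by 0.35 and 0.47, and ACSL3, its relative at lipid droplets, by 0.26 and 0.36. DGAT2, a triglyceride synthase, fell by 0.36 in the NTC lines (SE 0.13). SOAT2 fell by 1.03 in the PURPL lines (SE 0.39, edgeR adjusted p = 0.045) and DGAT1 rose there by 0.37 (SE 0.13, adjusted p = 0.038).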

How the data were processed

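Stranded mRNA libraries of 24 cultures were sequenced, per the labels. The authors deposited 1 table of expected counts (RSEM estimates by gene), in which a read fitting several genes is shared out, so values can be fractions of a read. The submitters' processing notes name cutadapt, STAR, RSEM, DESeq2 and hg38, and give no versions. Between 5.6% and 7.16% of values per library were not whole (tolerance 1e-06). Counts were rounded. The 45 rows of second pseudoautosomal copies were added to their X rows. Coordinates, exon lengths and GC content came from GENCODE release 29.

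Counts were scaled with TMM and tested with edgeR 4.0.16 (R 4.3.3) by its robust quasi-likelihood test after filterByExpr with a minimum count of 10, adjusted by Benjamini-Hochberg over all genes tested and called at 0.05. All 36 members passed the filter. Nutlin-3a responses came from 1 model of the 12 group means over 23 libraries, with 11 residual degrees of freedom, so those p-values measure the spread between harvests. Guide comparisons used sums per line, with 4 residual degrees of freedom. GC trends were removed by lowess offsets (span 0.3) in an alternative. GC content was known for 99.7% of tested genes. The fits were run on simulated counts in which the lines had no spread of their own. That run therefore cannot show how the guide comparisons behave under spread between lines. Members, roles, lists, the library left out and the rule for named genes (every called member, PURPL, CDKN1A and up to 8 called further genes per comparison) were chosen with earlier results of these data known. Some genes that this rule names are not reported here. Alternatives were RLE size factors, no filter, DESeq2 1.42.0, all 24 libraries, a replicate block, only the lines compared, sums, and single libraries or lines left out.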

Additional observations from a re-analysis of the deposited data

Results flagged for a closer look

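Levels of the 36 genes were screened for 1 library far from the rest of its set, in 144 groups of 4 to 8 libraries. Chance alone flags about 1 in 20 such groups, and 8 were found in 7 genes. In the NTC lines in DMSO, harvest 3 of NTC1 stood apart for 3 genes. It had PMVK at 9.63 CPM (others 5.63 to 6.20), NPC2 at 59.3 CPM (others 43.1 to 45.0) and ACACA at 179 CPM (others 264 to 281). In the same lines in Nutlin-3a, NTC1 harvest 1 had SREBF1 at 12.6 CPM (others 9.68 to 10.0) and NTC1 harvest 3 had ACACA at 239 CPM (others 254 to 256). In the PURPL lines in DMSO, sg6 harvest 1 had LSS at 21.5 CPM (others 27.8 to 31.9) and DHCR7 at 35.0 CPM (others 45.1 to 50.01). In Nutlin-3a, sg5 harvest 3 had FASN at 93.1 CPM (others 35.6 to 53.1). The GC slopes of NTC1 DMSO harvest 3 and sg5 Nutlin-3a harvest 3 were 0.33 and 0.36, the highest of the 23 libraries, and that of sg6 DMSO harvest 1 was -0.19, the lowest.

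The sg2 Nutlin-3a harvest 1 library, which the comparisons leave out, lay above the range of all other libraries for 16 of the 36 genes. It lay below that range for 11. The 16 had transcripts of 51.7% to 65.8% GC and the 11 of 38.1% to 49.99%, and the GC slope of this library over all genes was 1.55. FASN at 1223 CPM was the highest of the 16. The share of all genes outside the range was not counted, so these counts describe the library and not these genes.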

How the results depend on the processing

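No call of a member reversed. Over the 20 calls of members and their alternatives, 341 of 424 values stayed past the threshold in the same direction and 83 missed it. With all 24 libraries, the NTC lines gave 685 genes higher and 659 lower and members 0 and 0, the PURPL lines gave 3 members lower, and in Nutlin-3a the guide comparison gave 0 genes lower. With the GC trend removed, the NTC lines gave members 3 higher and 6 lower, where 10.3% and 21.4% of all genes were called, and the guides in DMSO 1 gene higher. Sums per line gave 1 member lower in the NTC lines. Without the filter, the PURPL lines gave 8 members higher, the guides in DMSO 1 gene higher, the guides in Nutlin-3a 3 higher and 3 lower with 1 member (FADS2), and the difference of responses 6 higher and 1 lower. DESeq2 gave 8 genes higher and 3 lower for the guides in DMSO, 14 and 5 in Nutlin-3a with 1 member (FADS2), and 4 and 1 for the difference. RLE size factors gave 2 genes lower for the guides in Nutlin-3a.

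Leaving out 1 library gave 1 to 4 members higher and 1 to 4 lower in the NTC lines, and 4 to 8 higher and 4 to 9 lower in the PURPL lines. Leaving out 1 line gave 0 to 3075 genes higher and 0 to 3249 lower for the guides in DMSO, with 0 to 13 members higher and 0 to 12 lower. It gave 0 to 1 and 1 to 2 genes for the guides in Nutlin-3a, and 0 to 1488 and 0 to 1449 genes with 0 to 7 and 0 to 2 members for the difference. The upper ends in DMSO and for the difference came without NTC2. Low counts limit MVD and TM7SF2 most. In the NTC lines, with D for DMSO, N for Nutlin-3a and the harvest number last, HSD17B7 lost its call without NTC1 D 1, NTC2 D 1, NTC1 N 3 or NTC2 N 3 (log2 0.23 to 0.30), and STARD4 without NTC1 D 3, NTC2 D 1, NTC1 N 3 or NTC2 N 1 (0.23 to 0.27). INSIG2 lost it without NTC1 D 3, NTC2 D 1, NTC2 D 3, NTC1 N 3, NTC2 N 1 or NTC2 N 3 (0.16 to 0.22), MYLIP without any library but NTC1 D 1 (0.35 to 0.41), and ELOVL6 without NTC1 D 1, NTC1 D 3, NTC2 D 3, NTC1 N 1 or NTC2 N 1 (-0.22 to -0.17). Over the PURPL lines, IDI1 lost it without sg2 D 3, sg4 D 3, sg5 D 1, sg6 D 1, sg6 D 3, sg4 N 1, sg5 N 3 or sg6 N 1 (-0.21 to -0.13), and SC5D without any of these or sg5 D 3 (-0.17 to -0.12).

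Whether harvest numbers pair the libraries was not settled. Deviations of same-numbered DMSO and Nutlin-3a libraries of a line correlated at 0.016 to 0.32 over genes, not all above 0.1. All were positive, and mean correlations with other lines were -0.025 to 0.048. The sg2 value (0.19) includes the library set apart. The main fits did not pair the harvests. With a replicate block for the harvest number, the NTC lines gave 5 members higher and 4 lower, with SQLE added to the lower ones, and the PURPL lines 6 and 7, with PMVK added to the higher ones. With the block and the GC trend removed, the NTC lines gave 10 members lower, where 23.7% of all genes were called lower. The block gave 5 genes higher and 2 lower for the guides in DMSO and 5 and 3 in Nutlin-3a, with no member.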
